A study of Rattus norvegicus with 24 samples.

Results

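The genes described here are 9 that respond to cytokines, to glucocorticoid hormone or to the circadian clock in many rodent tissues: Cebpd, Cebpb and Nfil3, then Tsc22d3, Fkbp5, Ddit4 and Sgk1, then Per1 and Per2. They were taken by name, with every probe set whose only gene symbol in the platform annotation is 1 of these 9, which gave 13 probe sets of the 31042 tested and 9 genes of the 14217 named. Cebpd has 3 probe sets, Fkbp5 and Per2 have 2 each, and the probe set with the highest mean intensity stands for the gene unless another is named. All 9 genes had a probe set and none was removed by a filter.

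Cebpd and Cebpb encode bZIP transcription factors of the C/EBP family that are switched on within hours by interleukin 6 and interleukin 1, and Nfil3 encodes a bZIP repressor that responds to the same kind of signal and opposes the clock output factors at D-box sites. Tsc22d3 (GILZ), Fkbp5, Ddit4 and Sgk1 are standard targets of the glucocorticoid receptor, and in other tissues Cebpd, Cebpb and Per1 are also raised by glucocorticoids. Per1 and Per2 are the negative arm of the clock loop, and glucocorticoid hormone is one of the signals that sets their phase outside the brain.

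The study measured testis RNA of male Fisher 344 rats on 24 Affymetrix Rat230_2 arrays, 4 in each of 6 groups. Dibutyl phthalate (DBP), a plasticizer that lowers testosterone synthesis in the fetal rat testis, was given by gavage to pregnant dams at 50 mg/kg daily over gestational days 12 to 20, and corn oil was given to control dams. At gestational day 20 (GD20) the DBP testes were collected 6 hours after that final gavage and are numbered by dam (16, 18, 19 and 21), and the oil testes come from dams 2, 3, 4 and 5, of which dam 2 is labelled as pooled and no interval is given. At postnatal day 35 (PND35), around puberty, male offspring received a single gavage of 500 mg/kg DBP or of corn oil and the testis was taken 6 hours later. The groups are named by fetal and then pubertal gavage. DBP-DBP pups were 124, 128, 133 and 135, DBP-oil pups 123, 127, 132 and 134, oil-DBP pups 105, 111, 115 and 121, and oil-oil pups 104, 110, 114 and 120. No transgene or genetic change is involved. The labels do not say which PND35 pups are littermates, so p-values measure the spread between these animals. The time of day of collection is not given in the labels, which bears on every clock gene below.

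Values are the deposited probe-set intensities, in arbitrary units. They are not compared between genes, because probe sets differ in brightness for reasons other than transcript abundance. A call means an adjusted p under 0.05 from limma, with Benjamini-Hochberg adjustment over all 31042 probe sets, and log2 differences are of (intensity + 16).

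Markers of the labelled tissue were present: the summed intensity of 6 Leydig markers was 4199.6 to 16563 at PND35, and that of 3 germ cell markers was 52600.0 to 75809 there. Markers of epididymis were dim on all 24 arrays, with summed intensities of 61.5 at most for Defb1 and Adam7. The adrenal gland markers Cyp11b1 and Cyp21a1 summed to 191 at most. Of these, Cyp11b1 averaged 138 in GD20 oil and 135 in GD20 DBP testes, against 4.60 to 14.1 in the PND35 groups. Cyp21a1 averaged 15.1 to 50.6 over all groups. Poly-A spike-in controls split the arrays into a low and a high class. Their mean log2 intensity was 5.75 to 6.33 on the low arrays and 6.97 to 8.33 on the high ones. At PND35 all DBP-DBP arrays were in the high class, DBP-oil pups 132 and 134 were high and 123 and 127 low, and all oil-DBP and oil-oil arrays were low. The step that split them is not given. All PND35 samples were extracted with a column kit except pups 104 (oil-oil) and 115 (oil-DBP), which like all GD20 samples were extracted with Trizol.

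Promoter sequence in the RefSeq table of the GRCr8 rat assembly was matched for 8 of the 9 genes, and not for Cebpd. It came as 12 windows of 300 bases that run from 250 bases before to 50 bases after a transcription start. The windows of Cebpb, Nfil3 and Per2 are shown because they belong to both the genes that rose and a clock gene that did not pass the test, and because they hold matches to sites that the text refers to. Capitals mark a CRE core (TGACG or CGTCA, bound by CREB, the cyclic AMP response factor) or, in Per2, also a D-box (TTATGTAA, the site shared by Nfil3 and the clock output factors Dbp, Tef and Hlf). Cebpb lies at chr3:176816755-176817054 on the plus strand, Nfil3 at chr17:12432126-12432425 on the plus strand and Per2 at chr9:99496944-99497243 on the minus strand.
Cebpb: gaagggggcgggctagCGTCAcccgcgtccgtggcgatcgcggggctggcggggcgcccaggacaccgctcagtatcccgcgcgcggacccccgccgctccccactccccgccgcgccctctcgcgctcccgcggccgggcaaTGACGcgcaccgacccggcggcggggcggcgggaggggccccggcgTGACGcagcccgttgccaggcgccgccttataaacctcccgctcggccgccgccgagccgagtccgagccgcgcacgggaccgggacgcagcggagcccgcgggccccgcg
Nfil3: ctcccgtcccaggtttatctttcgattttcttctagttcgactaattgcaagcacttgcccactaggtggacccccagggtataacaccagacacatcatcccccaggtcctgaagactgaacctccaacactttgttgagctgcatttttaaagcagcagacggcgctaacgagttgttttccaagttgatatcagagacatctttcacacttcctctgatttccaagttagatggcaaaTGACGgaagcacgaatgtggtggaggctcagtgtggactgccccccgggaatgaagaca
Per2: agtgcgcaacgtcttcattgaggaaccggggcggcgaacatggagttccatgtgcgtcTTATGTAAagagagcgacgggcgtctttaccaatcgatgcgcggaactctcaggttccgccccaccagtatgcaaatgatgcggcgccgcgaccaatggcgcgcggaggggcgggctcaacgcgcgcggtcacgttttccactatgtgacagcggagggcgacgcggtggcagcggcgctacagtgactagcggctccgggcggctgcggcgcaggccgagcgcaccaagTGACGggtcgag

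The Cebpb window held 3 CRE cores, at bases 17 to 21, 144 to 148 and 190 to 194 of the window. That of Nfil3 held 1, at bases 242 to 246. In the Per2 window a D-box lay at bases 59 to 66 and a CRE core at bases 289 to 293. A Tsc22d3 window that is not shown held CRE cores at bases 176 to 180 and 186 to 190. Over both strands, CRE cores were present in 4 of the 12 windows (Cebpb, Nfil3, Per2 and 1 of the 3 Tsc22d3 windows), against 21.2% of all 33469 promoters in the table. The D-box was in 1 of 12, against 0.893% of all promoters. None of the 12 windows held the palindromic glucocorticoid response element (AGAACA and TGTTCT with 3 bases of any kind between them, in 0.0149% of all promoters), the E-box CACGTG (6.42%), the C/EBP palindrome TTGCGCAA (0.170%), the STAT site TTCNNNGAA (8.87%) or an NF-kB site (GGG and TTTCC with 2 bases of any kind between them, or the reverse, 1.53%). Such matches are letters in a short window, and none was tested for binding here.

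Acute DBP at puberty raised the cytokine-input genes Cebpd, Cebpb and Nfil3 in rats of both fetal histories, by 2.87 to 11.6 times on the ratio of means. Of the glucocorticoid targets, Sgk1 rose and Ddit4 fell, and Tsc22d3 and the main Fkbp5 probe set did not pass the test. Per1 and Per2 did not pass it either. In each of the 2 comparisons 4 of 9 genes were higher, 1 was lower and 4 were not called, and the called genes were the same 5. Among all 14217 genes, 12.2% were called in oil-DBP against oil-oil (6.18% higher, 5.99% lower) and 7.33% in DBP-DBP against DBP-oil (5.16% higher, 2.17% lower). The median log2 difference over the 9 genes was 0.13 in oil-DBP and 0.04 in DBP-DBP, beside medians over all genes of -0.11 and -0.07. The 2 comparisons share no arrays.

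Cebpd had 964, 834, 1358 and 1109 in DBP-DBP testes, against 140.3, 107, 122 and 63.1 in DBP-oil testes. It had 936, 1552, 1138 and 1203 in oil-DBP testes, against 111, 107, 90.95 and 108 in oil-oil testes. Every testis given DBP at puberty lay above every testis given oil, with no value between the lowest DBP array and the highest oil array. With its standard error, the log2 difference was 3.13 ± 0.19 (adjusted p = 4.32e-10) in DBP-DBP and 3.26 ± 0.19 (adjusted p = 2.32e-10) in oil-DBP. A second Cebpd probe set gave 3.30 ± 0.23 in DBP-DBP and 3.76 ± 0.23 in oil-DBP (SE). The third is dim, with means of 40.1 in DBP-DBP, 32.3 in DBP-oil, 24.6 in oil-DBP and 16.2 in oil-oil testes, and passed in neither comparison.

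Cebpb, the C/EBP factor that drives acute-phase genes in liver, had 377, 304, 527 and 397 in DBP-DBP testes, against 122, 124, 187 and 128 in DBP-oil testes. The values were 239, 322, 429 and 496 in oil-DBP testes, against 134, 102, 45.1 and 103 in oil-oil testes. The groups did not overlap in either comparison, and oil-oil pup 114 was the lowest array of all. For Cebpb the log2 difference was 1.39 ± 0.25 (adjusted p = 0.000917) in DBP-DBP and 1.75 ± 0.25 (adjusted p = 5.66e-05) in oil-DBP.

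Nfil3 had 481, 297, 504 and 431 in DBP-DBP testes, against 45.01, 89.9, 58.2 and 112 in DBP-oil testes. In oil-DBP testes it had 304, 472, 499.5 and 488, against 81.4, 38.9, 60.4 and 75.1 in oil-oil testes. Again the DBP and oil arrays did not overlap, and the lowest DBP arrays were pup 128 (DBP-DBP) and pup 105 (oil-DBP). Nfil3 log2 differences were 2.28 ± 0.23 (adjusted p = 9.46e-07) in DBP-DBP and 2.46 ± 0.23 (adjusted p = 3.02e-07) in oil-DBP.

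**Figure D1:**
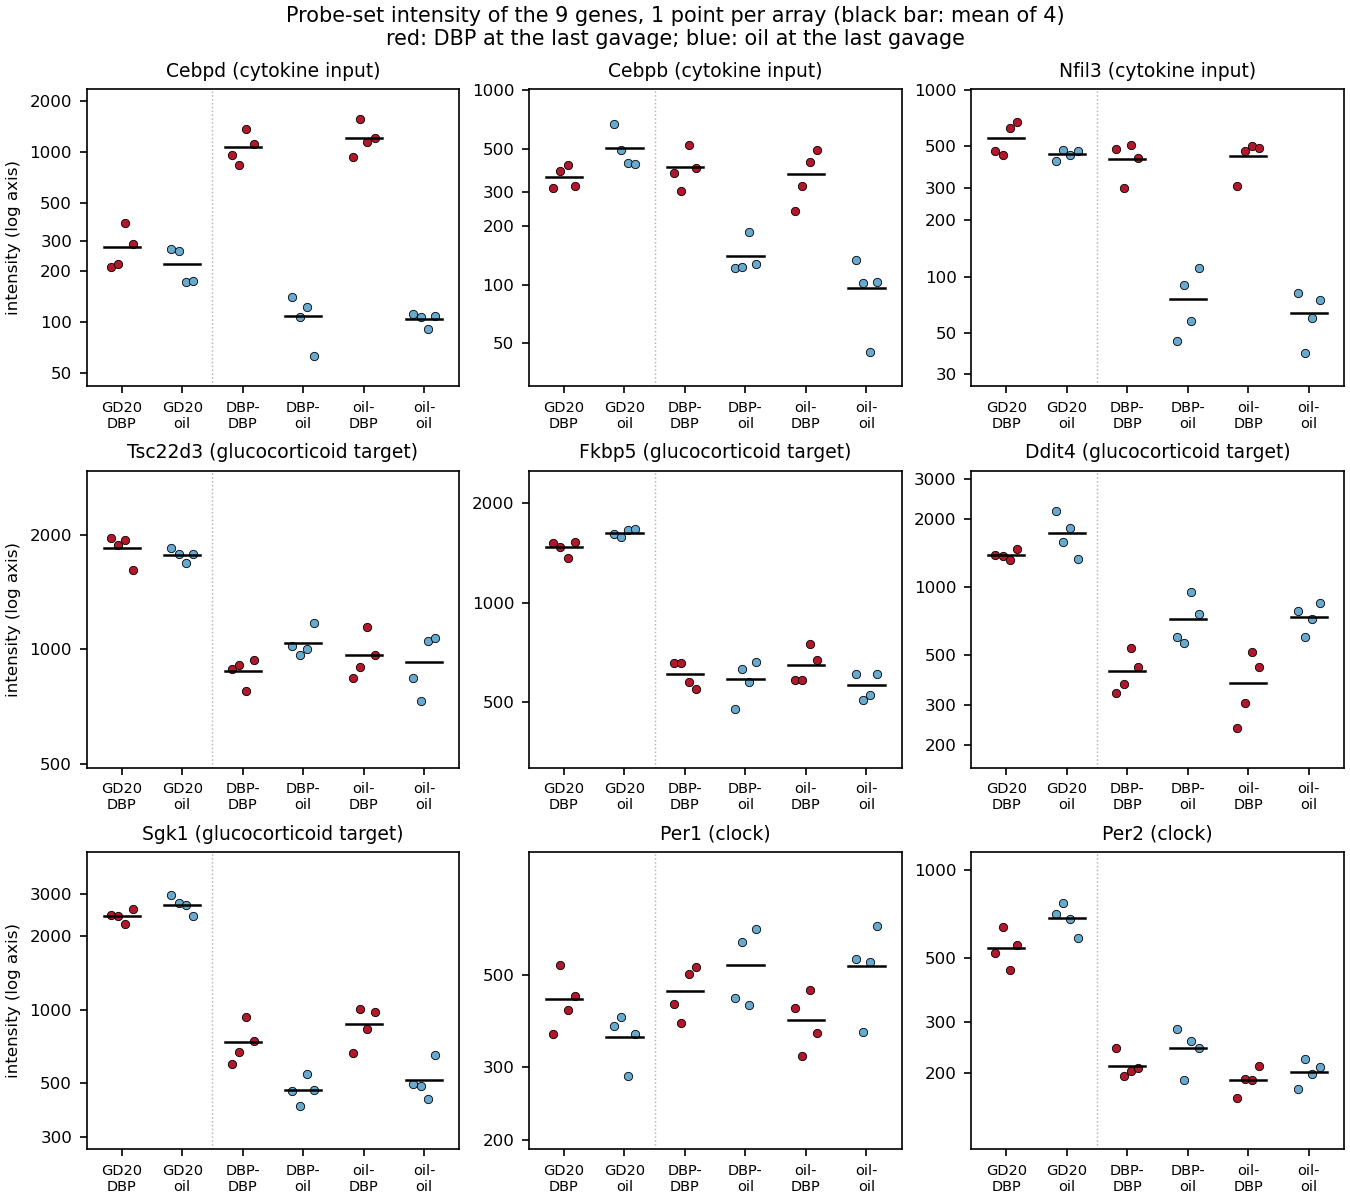
Probe-set intensity (log axis, each panel with its own range) of the 9 genes on each of 24 arrays, by group, with black bars at the mean of 4. Red points are testes given DBP at the last gavage and blue points those given oil. Cebpd, Cebpb and Nfil3 separate by the last gavage at PND35 in both fetal histories, with Cebpd at 834 to 1552 after DBP and 63.1 to 140.3 after oil, and Tsc22d3, Fkbp5, Per1 and Per2 overlap between most groups of 1 age.

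Cytokine pathway genes moved with Cebpd, Cebpb and Nfil3. Of 15 measured genes of the list of cytokine input to Cebpd and Cebpb, 10 were higher and 0 lower in each comparison. Of all genes 5.16% were higher in DBP-DBP and 6.18% in oil-DBP. The list medians were 1.79 in DBP-DBP and 1.82 in oil-DBP. Whether these genes act on the members here was not tested. The ligand gene Il6 averaged 352 ± 137 in DBP-DBP testes and 21.03 ± 14.03 in DBP-oil testes, and 290.1 ± 90.7 in oil-DBP testes and 15.99 ± 18.03 in oil-oil testes, with log2 differences of 3.30 ± 0.36 in DBP-DBP and 3.31 ± 0.36 in oil-DBP. Il1a, the gene of another ligand, rose by 2.89 ± 0.16 in DBP-DBP and 2.90 ± 0.16 in oil-DBP. The receptor gene Il6r rose by 2.58 ± 0.22 in DBP-DBP and 2.92 ± 0.22 in oil-DBP, and the transducer Stat3 by 1.79 ± 0.19 in DBP-DBP and 1.93 ± 0.19 in oil-DBP. In liver, interleukin 6 acts through Stat3 on the Cebpd gene. Socs3, the feedback inhibitor of that pathway, rose by 2.49 ± 0.27 in DBP-DBP and 2.92 ± 0.27 in oil-DBP, and Nfkb1, a subunit of NF-kB, by 2.20 ± 0.19 in DBP-DBP and 2.64 ± 0.19 in oil-DBP. The adjusted p-values behind these values were 2.3e-06 or less in limma.

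Neutrophil markers also moved with this group. S100a8 and S100a9 were called higher in both comparisons and Csf3r in neither, so that 2 of 3 measured markers passed. Their summed intensity was 557 to 3885 in DBP-DBP testes, against 38.5 to 132 in DBP-oil testes, and 299 to 1848 in oil-DBP testes, against 12.1 to 77.5 in oil-oil testes. Of 6 macrophage and leukocyte markers, 2 (Cd14 and Lyz2) were higher in DBP-DBP and 1 (Cd14) in oil-DBP, with sums of 1524 to 3827 in DBP-DBP, 1024 to 1366 in DBP-oil, 1678 to 3230 in oil-DBP and 1240 to 1532 in oil-oil testes. The neutrophil markers were dim after oil, and S100a8 averaged 2.67 in oil-oil and 12.6 in DBP-oil testes. In the same order S100a9 averaged 20.3 and 36.2, and Csf3r 18.2 and 31.0. Without detection calls, whether these markers were present in testes given oil was not tested. Of 4 peritubular myoid markers 3 (Acta2, Cnn1 and Tagln) were higher in both comparisons. Of 3 germ cell markers 2 (Prm1 and Tnp1) were lower in oil-DBP and 0 of 3 in DBP-DBP. Of 6 Leydig markers 1 (Cyp17a1) was lower in DBP-DBP, and 2 (Cyp17a1 and Cyp11a1) were lower and 1 (Star) higher in oil-DBP, with sums of 7998 to 10225 in DBP-DBP, 9964 to 14786 in DBP-oil, 4199.6 to 11189 in oil-DBP and 10739 to 16563 in oil-oil testes. Of 3 endothelial markers Kdr was higher in DBP-DBP and Tek lower in oil-DBP. In oil-DBP 1 of 5 Sertoli markers (Rhox5) was higher and 1 of 2 blood markers (Alas2) lower, and 0 of either list were called in DBP-DBP. Beside these marker counts, the shares over all genes were 5.16% higher and 2.17% lower in DBP-DBP. In oil-DBP they were 6.18% higher and 5.99% lower. The part of the marked cell types in the rise of Cebpd, Cebpb and Nfil3 was not tested. In whole testis a change in the number of cells of a type and a change in RNA per cell cannot be told apart.

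Other genes of the C/EBP family were mostly not called. Of 6 measured family members and partners 1 was higher and 0 lower in each comparison. Over all genes 5.16% were higher in DBP-DBP and 6.18% in oil-DBP. The called gene was Atf4 in both, a bZIP factor of the stress response that pairs with C/EBP proteins. Its log2 difference was 0.46 ± 0.10 (adjusted p = 0.00626) in DBP-DBP and 0.69 ± 0.10 (adjusted p = 8.93e-05) in oil-DBP. The other 5 (Cebpa, Cebpe, Cebpg, Cebpz and Ddit3) ran from -0.66 to 0.03 in DBP-DBP and from -0.18 to 0.52 in oil-DBP. Whether Cebpd and Cebpb differ from their relatives was not tested.

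Among the glucocorticoid targets, Tsc22d3, which encodes the anti-inflammatory leucine zipper GILZ, had 887, 907, 777 and 937 in DBP-DBP testes, against 1022, 966, 1001 and 1171 in DBP-oil testes. It had 842, 901, 1149 and 965 in oil-DBP testes, against 840.1, 733, 1055 and 1072 in oil-oil testes. The DBP-DBP arrays all lay below the DBP-oil arrays by a small margin, and the oil-DBP and oil-oil arrays overlapped. The log2 difference was -0.26 ± 0.12 (adjusted p = 0.294) in DBP-DBP. In oil-DBP it was 0.00 ± 0.12 (adjusted p = 0.993), with a 95% interval of -0.24 to 0.25.

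Fkbp5, the co-chaperone that damps the glucocorticoid receptor and is itself induced by it, had 656, 658, 577 and 549 in DBP-DBP testes, against 477, 632, 575 and 664 in DBP-oil testes. In oil-DBP testes the values were 584, 582, 748 and 673, against 609, 507, 527 and 611 in oil-oil testes. The groups overlapped in both comparisons. Log2 differences were 0.04 ± 0.11 (adjusted p = 0.919) in DBP-DBP and 0.13 ± 0.11 (adjusted p = 0.554) in oil-DBP, with 95% intervals of -0.20 to 0.28 and -0.11 to 0.36. The 2 Fkbp5 probe sets disagreed in oil-DBP: on the dimmer one every oil-DBP array (434, 457, 477 and 527) lay above every oil-oil array (330.2, 269, 317 and 409), with a log2 difference of 0.44 ± 0.12 (adjusted p = 0.0254). In DBP-DBP this probe set gave 0.24 ± 0.12 (adjusted p = 0.383).

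Ddit4 (REDD1), an inhibitor of the growth kinase complex mTORC1 that glucocorticoids and hypoxia induce, moved down. It had 339, 373, 539 and 440.1 in DBP-DBP testes, against 603, 566, 952 and 756 in DBP-oil testes. In oil-DBP testes it had 238, 306, 515 and 443, against 785, 598, 724 and 849.5 in oil-oil testes. No DBP array reached the lowest oil array of its comparison. This gave Ddit4 a log2 difference of -0.76 ± 0.19 (adjusted p = 0.0224) in DBP-DBP and -1.06 ± 0.19 (adjusted p = 0.00105) in oil-DBP. The DBP-DBP call was lost without DBP-DBP pup 124 (adjusted p = 0.0828) or 128 (0.0625), and without DBP-oil pup 132 (0.101) or 134 (0.0628).

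Sgk1, a kinase that glucocorticoids and mineralocorticoids induce and that controls ion channels, moved up. It had 597, 669, 928 and 745 in DBP-DBP testes, against 460.2, 400.3, 543 and 465 in DBP-oil testes. The oil-DBP testes had 663, 1007, 831 and 979, against 493, 487, 428 and 649.8 in oil-oil testes. The groups did not overlap in either comparison, although oil-oil pup 120 and oil-DBP pup 105 were close to each other. The log2 difference was 0.61 ± 0.14 (adjusted p = 0.0126) in DBP-DBP and 0.67 ± 0.14 (adjusted p = 0.0043) in oil-DBP. Without DBP-oil pup 127 the Sgk1 adjusted p in DBP-DBP was 0.0548, and without DBP-DBP pup 133 it was 0.0707. With the spike-in control class in the fit it was 0.152, with a log2 difference of 0.53.

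**Figure D2:**
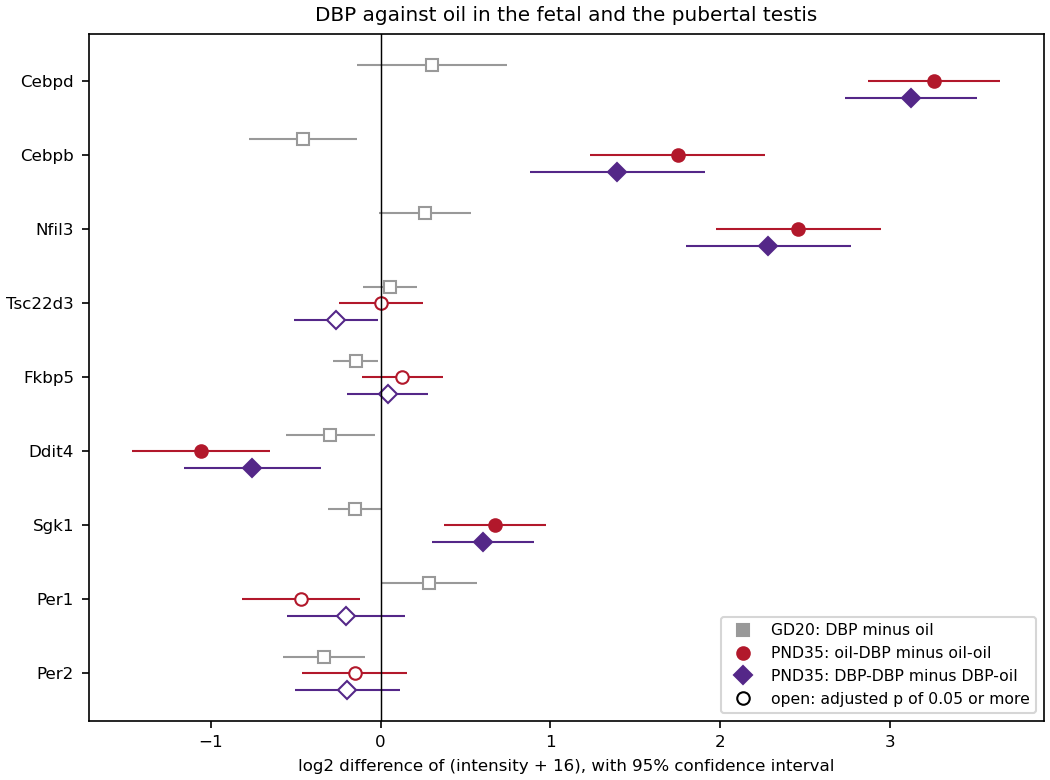
Log2 difference of (intensity + 16), with 95% confidence interval, of the 9 genes for DBP against oil at GD20 (squares) and at PND35 after fetal oil (circles) and after fetal DBP (diamonds). Filled points have an adjusted p under 0.05. At PND35 Cebpd, Cebpb, Nfil3 and Sgk1 lie right of 0 and Ddit4 left of it in both fetal histories, and no GD20 point is filled.

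Of 17 other measured genes known to respond to glucocorticoids, 7 were higher and 0 lower in DBP-DBP, and likewise in oil-DBP. Among all genes 5.16% and 6.18% were higher in these comparisons, and 2.17% and 5.99% lower. The list medians were 0.40 in DBP-DBP and 0.29 in oil-DBP, beside -0.07 and -0.11 over all genes. Dusp1, a MAP kinase phosphatase that stress and growth signals also induce, rose by 2.30 ± 0.17 in DBP-DBP and 2.00 ± 0.17 in oil-DBP. Nfkbia, the inhibitor of NF-kB and itself an NF-kB target, rose by 1.28 ± 0.13 in DBP-DBP and 1.25 ± 0.13 in oil-DBP. Klf9, a zinc-finger factor, rose by 0.67 ± 0.10 in DBP-DBP and 0.91 ± 0.10 in oil-DBP. Dusp1 and Nfkbia, which inflammatory signals also induce, had the largest differences of the list in both comparisons. Bcl6, a repressor that STAT3 also induces, rose by 0.96 ± 0.21 in DBP-DBP and 1.03 ± 0.21 in oil-DBP. Anxa1, Errfi1 and Rasd1 completed the 7 in each comparison, with log2 differences between 0.56 and 0.86. The remaining 10 did not pass in either comparison, and their log2 differences ran from -0.27 to 0.43 in DBP-DBP and from -1.13 to 0.30 in oil-DBP. The lowest of them in oil-DBP, named after its values were seen, was Pdk4, a kinase gene that restrains glucose oxidation, with -1.13 ± 0.39 (adjusted p = 0.0776) there and 0.40 ± 0.39 (adjusted p = 0.718) in DBP-DBP, and its interaction was 1.53 ± 0.55 (adjusted p = 0.954). Rasd1 lost its DBP-DBP call with the spike-in control class in the fit, and with only the DBP-oil arrays of the high class kept. Which signal raised the 7 genes was not tested.

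Genes of the glucocorticoid receptor machinery and of steroid access passed in oil-DBP and not in DBP-DBP. Of 11 measured, 0 were called in DBP-DBP, and 3 were lower and 0 higher in oil-DBP. Over all genes 7.33% were called in DBP-DBP, and 5.99% were lower and 6.18% higher in oil-DBP. Nr3c2, the mineralocorticoid receptor gene, averaged 49.3 ± 29.1 in oil-DBP testes and 121 ± 29.2 in oil-oil testes, with a log2 difference of -1.27 ± 0.37 (adjusted p = 0.037). The receptor co-chaperone genes Fkbp4 and Ptges3 had log2 differences of -0.46 ± 0.12 (adjusted p = 0.0154) and -0.25 ± 0.07 (adjusted p = 0.0351). Ptges3 lost its call under 11 of 21 alternatives, Nr3c2 under 10 and Fkbp4 under 5. For Nr3c1, the glucocorticoid receptor gene, named after its values were seen, the log2 difference was -0.07 ± 0.18 (adjusted p = 0.911) in DBP-DBP and -0.44 ± 0.18 (adjusted p = 0.14) in oil-DBP. None of these 4 genes passed the test of the difference between the 2 comparisons (adjusted p of 0.954 to 0.96).

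Around Ddit4 and Sgk1, 17 genes of the mTORC1 and Sgk1 pathway were measured. Of these, 1 was higher and 2 lower in DBP-DBP and 2 higher and 1 lower in oil-DBP. The shares over all genes were 5.16% higher and 2.17% lower in DBP-DBP, and 6.18% higher and 5.99% lower in oil-DBP. Nedd4l, a ubiquitin ligase that Sgk1 phosphorylates, rose by 0.66 ± 0.11 in DBP-DBP and 0.88 ± 0.11 in oil-DBP. Ndrg1, another Sgk1 substrate, rose by 1.13 ± 0.27 (adjusted p = 0.0106) in oil-DBP and gave 0.91 ± 0.27 (adjusted p = 0.0564) in DBP-DBP. Sesn1, like Ddit4 a stress-induced inhibitor of mTORC1, fell, with log2 differences of -0.67 ± 0.15 (adjusted p = 0.00788) in DBP-DBP and -0.87 ± 0.15 (adjusted p = 0.000587) in oil-DBP. Sesn2, of the same family, fell in DBP-DBP, by -0.52 ± 0.13 (adjusted p = 0.0133), and gave -0.38 ± 0.13 (adjusted p = 0.0603) in oil-DBP. Without oil-DBP pup 111 Ndrg1 lost its call, as it did with RNA integrity in the fit. Sesn2 lost its call without DBP-DBP pup 133 or DBP-oil pup 134, with the spike-in control class in the fit and with no intensity trend. With only the DBP-oil arrays of the high class kept, Sesn2 lost it too, and Sesn1 lost its DBP-DBP call (adjusted p = 0.0594).

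Of the clock genes themselves, Per1 had 424, 382, 503 and 522 in DBP-DBP testes, against 440.1, 597, 423 and 645 in DBP-oil testes. It had 416, 318, 459 and 362 in oil-DBP testes, against 545, 364, 536 and 656 in oil-oil testes. Both pairs of groups overlapped, oil-oil pup 110 being low within its group. Per1 gave -0.20 ± 0.17 (adjusted p = 0.649) in DBP-DBP and -0.47 ± 0.17 (adjusted p = 0.0866) in oil-DBP, and without oil-oil pup 110 the second value was -0.62, with an adjusted p of 0.0248.

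Per2 had 243, 195, 202 and 208 in DBP-DBP testes, against 284, 189, 257 and 243 in DBP-oil testes. It had 164, 190.3, 189.5 and 211 in oil-DBP testes, against 176, 223, 198 and 209.5 in oil-oil testes. The arrays overlapped in both comparisons. Per2 gave -0.20 ± 0.15 (adjusted p = 0.608) in DBP-DBP and -0.15 ± 0.15 (adjusted p = 0.586) in oil-DBP, with 95% intervals of -0.50 to 0.11 and -0.46 to 0.16. The second Per2 probe set was dim, with group means of 16.8 to 33.1, and passed in no comparison.

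The wider clock list held 19 measured genes, of which 1 was higher and 0 lower in DBP-DBP and 1 higher and 4 lower in oil-DBP. The shares over all genes were 5.16% higher and 2.17% lower in DBP-DBP, and 6.18% higher and 5.99% lower in oil-DBP. Bhlhe40 (DEC1), a repressor of the clock loop that cytokines and hypoxia also induce, averaged 341 ± 30.6 in DBP-DBP testes and 38.7 ± 15.6 in DBP-oil testes, and 340.3 ± 46.5 in oil-DBP testes and 44.1 ± 11.1 in oil-oil testes. Its log2 difference was 2.73 ± 0.21 (adjusted p = 1.67e-08) in DBP-DBP and 2.51 ± 0.21 (adjusted p = 5.46e-08) in oil-DBP. Among the D-box factors that Nfil3 opposes, the D-box binding protein gene Dbp, which shares only its letters with the chemical, averaged 174 ± 56.9 in oil-DBP testes and 312 ± 72.6 in oil-oil testes, a log2 difference of -0.88 ± 0.22 (adjusted p = 0.0133). Its paralogue Tef also fell in oil-DBP, with -0.50 ± 0.12 (adjusted p = 0.00848). In DBP-DBP the Dbp gene gave -0.72 ± 0.22 (adjusted p = 0.0634) and Tef -0.31 ± 0.12 (adjusted p = 0.17), neither past the threshold.

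Npas2, a partner of Bmal1 in the activating arm, fell in oil-DBP, with a log2 difference of -0.70 ± 0.17 (adjusted p = 0.0126). Nr1d1 (REV-ERB alpha), the repressor of Bmal1, gave -0.65 ± 0.20 (adjusted p = 0.0459) there. In DBP-DBP they gave -0.19 ± 0.17 (adjusted p = 0.69) and -0.61 ± 0.20 (adjusted p = 0.0935). None of these 4 lower genes passed the interaction test of a difference between the comparisons (adjusted p from 0.954 to 0.993). That test called 0% of all genes. Nr1d1 lost its call under 12 of 21 alternatives, the Dbp gene under 3, Npas2 under 2 and Tef under 0. The Dbp gene did so without oil-DBP pup 111 and Npas2 without oil-DBP pup 121.

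**Figure D3:**
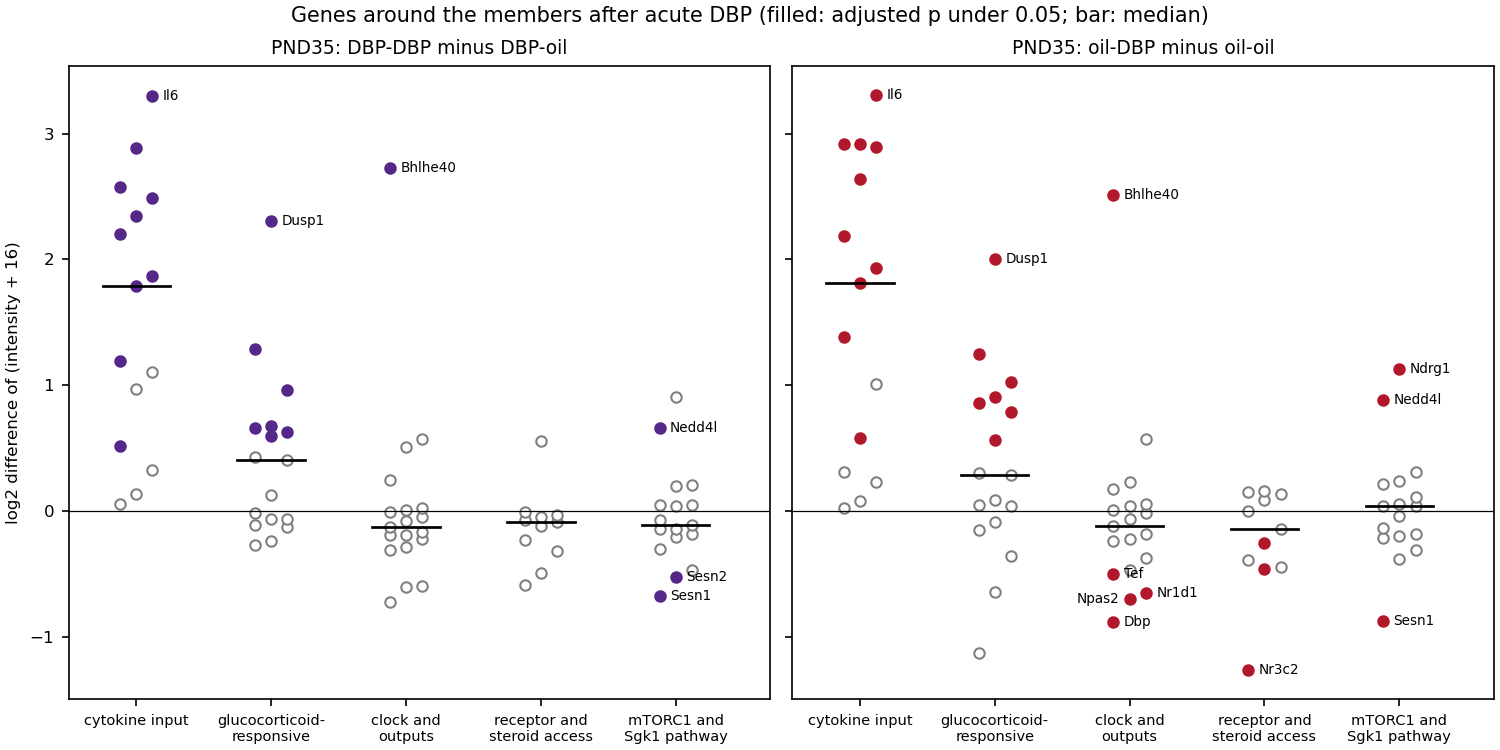
Log2 difference of (intensity + 16) of each measured gene in 5 lists around the members, in DBP-DBP against DBP-oil (left) and oil-DBP against oil-oil (right). Filled points have an adjusted p under 0.05, and bars are list medians. The cytokine list lies highest, with medians of 1.79 and 1.82, Bhlhe40 stands above the other clock genes, and Dbp is the D-box binding protein gene.

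No member passed the test for fetal DBP at puberty. In DBP-oil against oil-oil testes 0 of 9 genes were called, as were 0% of all genes, and 0 of the 9 had an unadjusted p under 0.05, against 6.44% of all genes. Cebpb gave the largest difference, 0.51 ± 0.25 (adjusted p = 0.676), and the other 8 lay between -0.14 and 0.23. In DBP-DBP against oil-DBP testes 0 of 9 were called, as were 0% of all genes, 0 of 9 had an unadjusted p under 0.05, against 9.75% of all genes, and log2 differences ran from -0.21 to 0.26. That comparison coincides with the class of the spike-in controls, and the 2 cannot be told apart.

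The interaction, which asks whether acute DBP acted differently after fetal DBP than after fetal oil, was called for 0 of 9 genes and for 0% of all genes. Of all genes 4.58% had an unadjusted p under 0.05, and 0 of the 9 did. For Cebpd the interaction was -0.14 ± 0.26 (adjusted p = 0.972), with a 95% interval of -0.68 to 0.41. For Cebpb it was -0.36 ± 0.35 (adjusted p = 0.954), with an interval of -1.08 to 0.37, and for Nfil3 -0.18 ± 0.33 (adjusted p = 0.97), with an interval of -0.86 to 0.51. The Ddit4 interaction was 0.30 ± 0.27 (adjusted p = 0.954), with an interval of -0.27 to 0.88. Each of these 4 intervals is wider than 1 on the log2 scale, so that differences as large as the Sgk1 rise could have been missed in 1 direction or both.

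In the fetal testis, 6 hours after the last of the daily 50 mg/kg doses, 0 of 9 genes were called in DBP against oil, beside 0.556% of all genes. An unadjusted p under 0.05 was reached by 5 of the 9 (Cebpb, Per2, Ddit4, Fkbp5 and Per1), against 13% of all genes. Cebpb had 313, 385, 412 and 324 in GD20 DBP testes, against 675, 495, 425 and 420.1 in GD20 oil testes. All 4 DBP arrays lay below all 4 oil arrays, and the log2 difference was -0.46 ± 0.15 (adjusted p = 0.246). Cebpd had 211, 220.1, 382 and 289 in GD20 DBP testes, against 269, 263, 172 and 174 in GD20 oil testes. Those arrays overlapped, with a log2 difference of 0.30 ± 0.20 (adjusted p = 0.602).

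For Nfil3 the fetal values were 470.1, 449.6, 623 and 669.8 in GD20 DBP testes, against 415, 475, 449 and 471 in GD20 oil testes. They overlapped, and dams 19 and 21, whose spike-in controls were in the low class, had the highest values. The fetal log2 difference was 0.26 ± 0.12 (adjusted p = 0.439). Fkbp5 had 1512, 1471, 1361 and 1522 in GD20 DBP testes, against 1607, 1575, 1658 and 1663 in GD20 oil testes. All DBP arrays were below all oil arrays on both probe sets, by -0.15 ± 0.06 (adjusted p = 0.371) on the brighter and -0.28 ± 0.07 (adjusted p = 0.156) on the dimmer.

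Ddit4 in the fetus had 1385, 1368, 1309 and 1467 in GD20 DBP testes, against 2172, 1587, 1825 and 1322 in GD20 oil testes. The DBP arrays were close together and the oil arrays spread wider and overlapped them, with a log2 difference of -0.30 ± 0.12 (adjusted p = 0.364). Per2 had 517, 637, 454 and 553 in GD20 DBP testes, against 706, 769.6, 679 and 583 in GD20 oil testes, with 1 DBP array (dam 18) above the lowest oil array, and a log2 difference of -0.33 ± 0.11 (adjusted p = 0.259). Per1 had 360.3, 527, 411 and 444 in GD20 DBP testes, against 377, 395, 286 and 361 in GD20 oil testes, which overlapped, with a log2 difference of 0.28 ± 0.13 (adjusted p = 0.424). Tsc22d3 and Sgk1 gave 0.06 ± 0.07 (adjusted p = 0.813) and -0.15 ± 0.07 (adjusted p = 0.456), again with overlapping arrays.

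Over the 7 pathway lists, of 6 to 19 measured genes each, 1 gene was called at GD20, beside 0.556% of all genes. It was Sgk3, a paralogue of Sgk1 and 1 of 12 measured paralogues of the members. Sgk3 averaged 2134 ± 224 in GD20 DBP testes and 1428 ± 73.8 in GD20 oil testes, with a log2 difference of 0.57 ± 0.08 (adjusted p = 0.00978). The call was lost without the array of oil dam 3 or of oil dam 5, and with no intensity trend in the fit. At PND35 Sgk3 gave 0.30 ± 0.13 in DBP-DBP and 0.26 ± 0.13 in oil-DBP, and was called in neither.

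The members' levels also differed with age in animals given oil. PND35 oil-oil and GD20 oil arrays were compared on the deposited scale, on which the median over all genes was -0.24 and 74.1% of genes were called (29.6% higher, 44.4% lower). All 9 genes were called, 8 lower and 1 higher at PND35. Nfil3, whose values are given above, averaged 63.96 ± 18.9 in PND35 oil-oil testes and 453 ± 27.5 in GD20 oil testes, with a log2 difference of -2.58 ± 0.19 (adjusted p = 2.03e-08). Sgk1 had 493, 487, 428 and 649.8 in PND35 oil-oil testes, against 2961, 2744, 2692 and 2420.0 in GD20 oil testes, a log2 difference of -2.37 ± 0.11 (adjusted p = 1.95e-10). Both genes were lower on every oil-oil array than on any GD20 oil array.

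Cebpb gave -2.26 ± 0.25 (adjusted p = 1.66e-06), Per2 -1.68 ± 0.11 (adjusted p = 1.14e-08) and Fkbp5 -1.51 ± 0.08 (adjusted p = 6.83e-10). Smaller were Ddit4 at -1.19 ± 0.14 (adjusted p = 3.18e-06), Tsc22d3 at -0.95 ± 0.11 (adjusted p = 2.54e-06) and Cebpd at -0.94 ± 0.19 (adjusted p = 0.000514). Per1 alone was higher, at 0.53 ± 0.16 (adjusted p = 0.00964), and its arrays overlapped. Cebpd lost its call under quantile normalization and under median centring (adjusted p = 0.201 and 0.199, log2 difference -0.30 and -0.29). Median centring raised every age difference by the same amount on the log2 scale, and the calls of the other 8 held. Nfil3 was then -1.93, Sgk1 -1.72, Cebpb -1.61, Per2 -1.03, Fkbp5 -0.85, Ddit4 -0.54, Tsc22d3 -0.29 and Per1 1.18. Per1 was also larger under quantile normalization, at 0.94, and with centring on the 75th percentile, at 0.83. The germ cell markers had summed intensities of 62404 to 75809 in PND35 oil-oil testes, against 1461 to 1776 in GD20 oil testes, and their part in the members' lower intensities was not tested. Age coincides with the extraction method apart from oil-oil pup 104.

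The pubertal values after acute DBP can be set beside the fetal ones on the deposited scale. Nfil3 averaged 428 ± 92.9 in DBP-DBP and 441 ± 91.9 in oil-DBP testes, against 453 ± 27.5 in GD20 oil testes (SD, n = 4 each), and these arrays overlapped. Cebpb averaged 401 ± 92.8 in DBP-DBP and 371 ± 114 in oil-DBP testes, against 504 ± 119 in GD20 oil testes, again with overlap. Cebpd averaged 1067 ± 225 in DBP-DBP and 1207 ± 256 in oil-DBP testes, against 219 ± 53.8 in GD20 oil testes, and there every pubertal DBP array lay above every fetal one. These values were set side by side after they were seen, and no test was made between them. Array medians on this scale were 103.9 to 109.1 in DBP-DBP, 105.5 to 114.1 in oil-DBP and 169.1 to 174.5 in GD20 oil testes. How near the pubertal and fetal levels lie therefore depends on the scale.

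The genes whose pattern over the 16 PND35 arrays was most like that of each member were found among 10254 genes, by the root mean square difference of centred log2 values. For Cebpd they were Krt19 (0.247), Csrnp1 (0.291) and Zfp36 (0.299), which encode a keratin, a nuclear factor and an mRNA-decay factor. For Sgk1 they were Plin2 (0.114), a lipid-droplet protein gene, Iqgap1 (0.115), a scaffold gene, and Abcg1 (0.119), a cholesterol exporter gene. For Nfil3 they were Trim47, St3gal4 and Dtx3l (0.305 to 0.309), for Cebpb Rassf8, Gadd45g and Wdr1 (0.331 to 0.340), and for Ddit4 Ankrd6, Phf6 and B4gat1 (0.255 to 0.286). Beside these differences, the standard deviation over the 16 arrays was 1.67 for Cebpd, 1.27 for Nfil3 and 0.91 for Cebpb. It was 0.56 for Ddit4 and 0.40 for Sgk1. Phf6 was called in neither acute comparison. These patterns share the arrays and the response to the last gavage. Tsc22d3, Fkbp5, Per1 and Per2 varied little over the 16 arrays, with a standard deviation of 0.15 to 0.31, so that their nearest genes are of little use and are not named.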

How the data were processed

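Testis RNA was measured on 24 arrays, 1 per sample, in 6 groups of 4. The authors deposited linear probe-set intensity values, and per the submitters' processing notes GCOS 1.0, the array maker's software, was used. All arrays share a 2% trimmed mean, of 500.135 to 500.194. How probes were summarized is not given in the labels. No detection calls were used. Intensities under 16 made up 12.1% to 19.4% of each array. The number of arrays limits the precision.

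From these values log2(intensity + 16) was computed, so that changes of dim genes are understated. Intensities were used as deposited at gestational day 20 (medians spanned 0.079) and between ages (0.71), and centred on their medians at postnatal day 35 (0.155); printed intensities are as deposited. Of 31099 probe sets 57 manufacturer's controls were left out. Platform annotation gives 1 symbol to 20826 of the 31042 tested, several to 436 and none to 9780.

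The tests were two-sided and came from limma 3.58.1 (R 4.3.3), in which eBayes allowed for a trend of the variance with intensity. P-values were adjusted by Benjamini-Hochberg over all 31042 probe sets, at a threshold of 0.05. The 8 fetal arrays, the 16 pubertal arrays and the 8 arrays of the age comparison had separate fits. In simulated data of 31042 probe sets, of which 100 were given a log2 change of 1, 86% of those 100 were recovered in oil-DBP against oil-oil and 87% at gestational day 20. A further 100 were given a change of 2, and 100% of them were recovered in both. The changed probe sets were drawn from those with a mean intensity over 100, with normal noise. Recovery of dimmer ones was not measured. All 9 members are named whatever their values. From each pathway list up to 6 genes past the threshold were named per comparison, by smallest adjusted p, and all clock genes past it. The 3 most similar genes were taken per member, among genes whose mean reached 100 in a pubertal group.

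The members and the gene lists were chosen with earlier results of these data known. Alternatives covered normalization, pseudocount, dim-probe filter, intensity trend, array weights, arrays fitted, extraction, RNA integrity, adjacent pup numbers as a block, and leaving out each array. The class of the spike-in controls was also added to the fit, and alternatives on arrays of 1 class were chosen after seeing the data.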

Additional observations from a re-analysis of the deposited data

Results flagged for a closer look

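Over the 9 members, 54 groups of 4 arrays were searched for an array whose gap to the nearest other, divided by the range of the group, exceeded Dixon's 95% critical value, and 3 were found; chance gives about 1 in 20 groups. Cebpd was low in oil-oil pup 114, at 90.95, where the other 3 arrays had 107 to 111. Cebpb was high in DBP-oil pup 132, at 186.65, against 122 to 128 on the other 3. Nfil3 was low in oil-DBP pup 105, at 304.4, against 472 to 499.5 on the other 3, and still lay above every oil-oil array. Leaving out any 1 of these arrays ended no call of Cebpd, Cebpb or Nfil3.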

How the results depend on the processing

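Over 63 results (9 genes in 7 comparisons, of which 19 were called), 1332 alternative values were computed on the main probe sets. A call was lost in 12 of these (Ddit4 and Sgk1 in DBP-DBP, Cebpd between ages), a call was gained in 2 (Per1 in oil-DBP), and 0 called directions reversed. Cebpd, Cebpb and Nfil3 kept their calls in both acute comparisons under all alternatives run apart from the dimmest Cebpd probe set, with log2 differences of 2.70 to 3.43, 1.17 to 1.97 and 1.80 to 2.72. The member count in oil-DBP was 5, with 5 to 6 over 21 alternatives and 5 to 6 leaving out 1 array, and the replicate block of adjacent pups gave 6. That block made Per1 lower (adjusted p = 0.0474), but the deviations of adjacent pups from their group means correlated from -0.14 to 0.23, so their numbers were not treated as pairs. It could not be fitted for comparisons of fetal treatment, since adjacent pups share it. In DBP-DBP the count of 5 became 3 with no intensity trend, where Ddit4 and Sgk1 had adjusted p-values of 0.0799 and 0.0513, and 4 to 5 leaving out 1 array. Sgk1 in DBP-DBP had an adjusted p of 0.171 on DBP-oil arrays of the high spike-in control class. The other counts were 0 throughout at gestational day 20, for fetal DBP and for the interaction, and 8 to 9 between ages. Counts over all probe sets moved more: 137 at gestational day 20 was 10 with no trend, 197 with array weights and 29 to 175 leaving out 1 array. In oil-DBP 2770 was 1508 with RNA integrity in the fit and 4607 without oil-DBP pup 105, and 1597 was the lowest leaving out 1 array. In DBP-DBP 1623 was 874 on DBP-oil arrays of the high class, and leaving out 1 array gave 1097 to 1519. For fetal DBP 1 was 0 to 14, and 0 in DBP-DBP against oil-DBP was up to 63 with RNA integrity in the fit. Between ages, genes outside the members turned positive: Tef was 0.081 with quantile normalization, and under median centring Tef was 0.39, Cry1 0.14, Rictor 0.049, Nr1d2 0.083, Cebpg 0.19 and Cebpz 0.41. With centring on the 75th percentile Tef was 0.034 and Cebpz 0.059. The causes were not tested.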
